A study of Mus musculus with 2 samples.

Results

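The Schlafen (*Slfn*) genes measured here are *Slfn1*, *Slfn2*, *Slfn3*, *Slfn4*, *Slfn5*, *Slfn8* and *Slfn9*. They were chosen by gene symbol and make up 7 of the 37451 genes of the expression table. RNA-Seq was performed on bone marrow-derived macrophages (BMDMs), primary cells grown from mouse bone marrow with CSF-1, in 1 library of wild-type (WT) cells and 1 library of ΔM cells. WT cells came from C57BL/6 littermates. ΔM cells came from C57BL/6 TTP fl/fl LysMCre mice, in which *Zfp36*, the gene of the mRNA-destabilizing protein tristetraprolin (TTP), is deleted by a Cre recombinase driven from the lysozyme M locus of myeloid cells. Mice were 7 to 9 weeks old. Both cultures received 100 μM 4-thiouridine (4sU), a labelled nucleoside, for 16 h and then 10 ng/ml LPS, a bacterial activator of macrophages, for 6 h according to the protocol. The titles of both libraries end in LPS7, and what this stands for was not given in the sources used here. The comparison of ΔM with WT asked how the levels of these mRNAs differed when TTP was removed from stimulated macrophages. The number of animals behind a library and the strand setting of the counting were not given in the sources used here, and the LPS response itself could not be measured because both libraries were stimulated.

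Schlafen proteins take their name from the German word for sleeping, after the arrest of growth that *Slfn1* causes in T cells. Mouse members are grouped by protein length into short (*Slfn1*, *Slfn2*), intermediate (*Slfn3*, *Slfn4*) and long forms (*Slfn5*, *Slfn8*, *Slfn9*), of which the long forms carry a helicase-like region at the C-terminus. Many of them are induced by type I interferon, which LPS-stimulated macrophages secrete and respond to through the IFNAR receptor and transcription factors such as STAT2 and IRF9. TTP binds AU-rich elements in the 3′ UTRs of mRNAs, best at the heptamer UAUUUAU, and can bring about their decay. The study found that many mRNAs bound in this region were stable.

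The 7 genes lie together on chromosome 11 of mm9. With *Slfn10-ps* and *Slfn14-ps* they form a cluster of 335 kb (chr11:82764851-83100228). *Slfn5* (ENSMUSG00000054404, chr11:82764851-82776443), *Slfn2* (ENSMUSG00000072620, chr11:82878614-82884180), *Slfn1* (ENSMUSG00000078763, chr11:82930351-82936172), *Slfn4* (ENSMUSG00000000204, chr11:82988688-83003723) and *Slfn3* (ENSMUSG00000018986, chr11:83004832-83028656) are on the plus strand. *Slfn9* (ENSMUSG00000069793, chr11:82793131-82805332) and *Slfn8* (ENSMUSG00000035208, chr11:82815660-82834312) are on the minus strand. All 7 deposited positions matched the GENCODE M1 annotation. The longest annotated coding sequences fell into the length groups, with 1014 nt for *Slfn1* and 1137 nt for *Slfn2*, 1554 nt for *Slfn3* and 1809 nt for *Slfn4*, and 2655 nt for *Slfn5* and 2733 nt each for *Slfn8* and *Slfn9*. Aligned coding bases were most alike within the intermediate pair, at 95.3% for *Slfn3* and *Slfn4*, and in the long pair of *Slfn8* and *Slfn9*, at 92.7%. *Slfn5* matched each of these long forms at 64.4%. Those of *Slfn1* and *Slfn2* matched at 72.2%, below *Slfn1* and *Slfn9* (77.7%) and *Slfn2* and *Slfn3* (79.5%). These shares leave out unaligned bases, and coding sequences of unlike length have many of them. Identical bases made up 63.7% of the longer coding sequence for *Slfn1* and *Slfn2*. By this measure the pair was above *Slfn1* and *Slfn9* (28.4%) and *Slfn2* and *Slfn3* (47.3%).

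The 3′ UTRs were searched first, because the genotypes differ in a protein that binds there. The heptamer TATTTAT (in DNA letters) occurred once in the longest annotated 3′ UTR of *Slfn4* (927 nt) and once in that of *Slfn5* (1237 nt), and in none of the other 5. Among protein-coding genes whose mean over the 2 libraries reached 1 FPKM (fragments per exon length and mapped library size, with such genes called expressed here), 27.0% held it. Among those with a longest 3′ UTR of 300 to 1600 nt, a range that holds all members but *Slfn8*, 19.6% did. The pentamer ATTTA, which also lies inside the heptamer, was found 3 times in *Slfn4*, 4 times in *Slfn5*, 4 times in *Slfn8* and 2 times in *Slfn9*, and in none of the shorter 3′ UTRs of *Slfn1*, *Slfn2* and *Slfn3* (345 to 597 nt). Of expressed protein-coding genes 66.6% held the pentamer, and 61% of those with 300 to 1600 nt did. Positions at which TTP was cross-linked to RNA in stimulated BMDMs were taken from the site tables of the study, without their scores. Of the members, *Slfn4* had listed 3′ UTR sites at 6 h of LPS, and *Slfn5* at 3 h and 6 h. Each window below starts 5 bases before the longest site listed for 6 h of LPS (chr11:83003072-83003083 for *Slfn4* and chr11:82775769-82775781 for *Slfn5*), and capitals mark the heptamer. The windows are from the mm9 plus strand, chr11:83003067-83003096 and chr11:82775764-82775793.
Slfn4: atggcatctatttttttcTATTTATatgat
Slfn5: ttgccttctacatgactTATTTATtcagaa
The heptamer began 13 bases after the start of the *Slfn4* site, which is 12 nt long, so that it lay just outside the listed site. It began 12 bases after the start of the *Slfn5* site, which is 13 nt long, so that only its first base fell inside. A further *Slfn5* site listed for 6 h (chr11:82775784-82775786) lay within the heptamer. Of the overlapping *Slfn5* sites listed for 3 h, the longest (chr11:82775769-82775790) covered the whole heptamer. Another (chr11:82775780-82775781) held only its first base, and the rest ended before it. All bases of the listed sites matched the genome. The *Slfn5* heptamer is part of the nonamer TTATTTATT, which 6.89% of expressed protein-coding genes held in their longest 3′ UTR. Of those with 300 to 1600 nt, 4.37% held it.

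Promoters were searched for the core of the interferon-stimulated response element (ISRE), GAAA, any 2 bases and GAAA, on both strands from 250 bases before to 50 bases after the RefSeq start sites (GRCm38.p6). All 7 genes had at least 1 promoter in this table, and *Slfn8* had 2 that overlap. The 3 long members held a match and the 4 short and intermediate members held none. Of all 32851 promoters 3.44% held a match, as did 12 of 25 promoters (48.0%) of the interferon-stimulated genes described further on. These 25 came from 21 of the 30 listed genes, and 11 of the 21 held a match. The matches are shown in the direction of transcription with the core in capitals, from chr11:82951937-82951966 (plus strand) for *Slfn5*, chr11:83020839-83020868 (minus strand) for *Slfn8* and chr11:82991856-82991885 (minus strand) for *Slfn9*.
Slfn5: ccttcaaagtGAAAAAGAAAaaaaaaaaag
Slfn8: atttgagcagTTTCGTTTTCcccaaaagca
Slfn9: atccgagcagTTTCGTTTTCccaaaaacaa
The core began 155 bases before the start site of *Slfn5*, 45 bases before that of *Slfn9*, and 48 or 136 bases before the start sites of *Slfn8*. It lay in the reverse direction in *Slfn8* and *Slfn9*. The GAS motif (TTC, any 3 bases, GAA) was not found in these windows of the 7 genes, and 8.30% of all promoters held it. A match gives letters only and no binding, and a missing match speaks for this window alone.

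Levels are the FPKMs calculated by the authors. The steps between low values put the depth at about 36900000 fragments in WT and 32800000 in ΔM. From these depths 95% Poisson intervals were calculated, which cover counting error only. With a single library on each side no difference could be set against a spread between replicates, and none carries a p-value. Differences are given as the log2 ratio of ΔM to WT after adding 1 FPKM to both values, and the ratio of the FPKMs themselves is given with an exact binomial counting interval. *Zfp36* dropped from 65.3 FPKM in the WT library to 16.7 FPKM in the ΔM library, a log2 ratio of -1.90. Over the 10765 expressed genes of all types the median was 0.03, and over the 8078 protein-coding genes among them it was -0.0015, so the libraries were not rescaled. Macrophage markers were high in both libraries. *Emr1* (380 and 357 FPKM), *Cd68* (388 and 390 FPKM), *Fcgr1* (306 and 329 FPKM), *Itgam* (223 and 200 FPKM), *Cd14* (117 and 110 FPKM) and *Csf1r* (104 and 119 FPKM) are given with WT before ΔM. *Mertk* was low at 2.15 and 3.48 FPKM. *Lyz2*, the lysozyme M gene that hosts the Cre, was at 2481 in WT and 1356 FPKM in ΔM, and the part of this gap in other differences was not tested. Of 23 markers of T cells, B cells, neutrophils and fibroblasts, 22 stayed under 1 FPKM in both libraries, and the exception was *Cd4* at 1.03 and 0.77 FPKM. Their summed level was 1.93 in WT and 2.05 FPKM in ΔM, and the defining markers *Cd3e* and *Ly6g* were listed at 0 in both. In bulk RNA, fewer cells of a type and less RNA per cell cannot be told apart.

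All 7 Schlafen mRNAs were detected in both libraries, and their levels spanned 66.8-fold in WT and 69.6-fold in ΔM. *Slfn2* was the most abundant member, followed by *Slfn5*, *Slfn8*, *Slfn4*, *Slfn1*, *Slfn9* and *Slfn3*, and this order was the same in both libraries. *Slfn2* made up 49.8% of the summed FPKM of the family in WT and 46.8% in ΔM. Together *Slfn2*, *Slfn5* and *Slfn8* held 88.2% and 86.6%. The summed level was 389 in WT and 374 FPKM in ΔM, a ratio of 0.96. Neighbours in the order differed beyond counting error within each library, except *Slfn1* and *Slfn9* in WT, which had a ratio of 1.09 with an interval of 0.996 to 1.2. In ΔM the same ratio was 1.34 (1.22 to 1.47). *Slfn5* exceeded *Slfn8* by 1.16-fold in WT (1.12 to 1.2) and by 1.15-fold in ΔM (1.11 to 1.2).

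**Figure D1:**
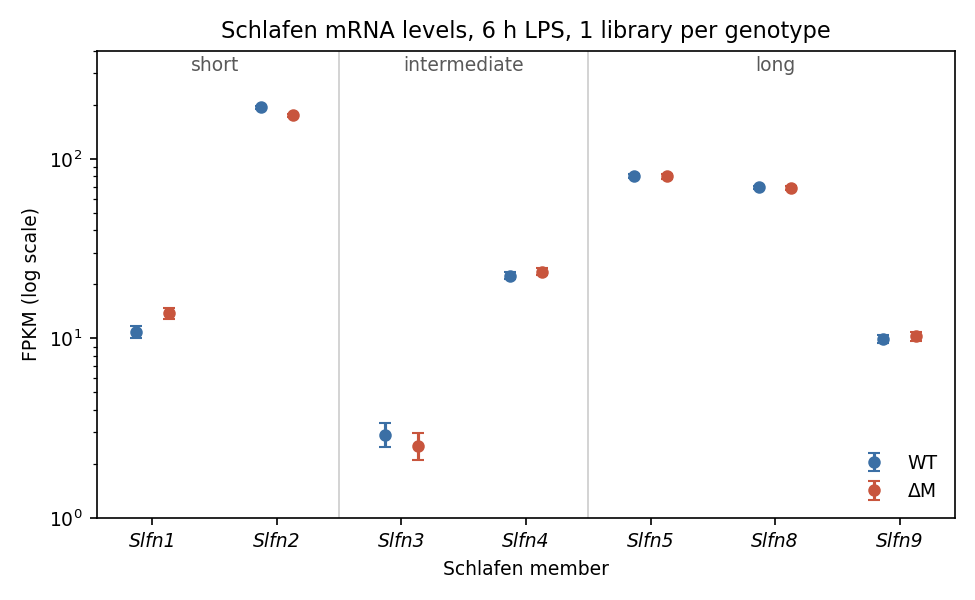
FPKM (log axis) of the 7 Schlafen members in the WT library (blue) and the ΔM library (red), grouped by protein length. Bars are 95% Poisson intervals for counting error, and 1 library stands behind each point. *Slfn2* is highest at 194 and 175 FPKM and *Slfn3* lowest at 2.90 and 2.51 FPKM. The colours separate beyond the bars for *Slfn1* and *Slfn2* only.

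The short members differed from each other in level and direction. *Slfn2*, whose loss of function in elektra mice makes T cells and monocytes fail to stay quiescent and leaves the animals open to infection, was at 194 FPKM in WT (190 to 198) and 175 FPKM in ΔM (171 to 179). About 10477 and 8389 fragments stood behind these values. The ΔM library was lower by a ratio of 0.902 (0.876 to 0.928), a log2 ratio of -0.15. In both libraries *Slfn2* ranked near the top of expressed protein-coding genes, at percentile 97.8 in WT and 97.7 in ΔM.

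*Slfn1*, the founding member and an inhibitor of T cell growth, was at 10.9 FPKM in WT (10.1 to 11.8) and 13.8 FPKM in ΔM (12.8 to 14.8), from about 669 and 752 fragments. The ratio was 1.27 (1.14 to 1.41) and the log2 ratio 0.31, the largest distance from 0 among the members. Of expressed protein-coding genes at any level, 29.6% lay farther from 0. Their lower and upper quartiles were -0.2 and 0.219 at a mean of 1 to 10 FPKM. They were -0.189 and 0.134 at a mean of 10 FPKM or more. Both short members have a single annotated transcript, so their FPKMs did not depend on how fragments were shared between isoforms.

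Of the intermediate members, *Slfn4*, a gene of myeloid cells, was at 22.3 FPKM in WT (21.4 to 23.3) and 23.6 FPKM in ΔM (22.5 to 24.6). The ratio was 1.06 (0.992 to 1.12) and the log2 ratio 0.07, so that the 2 libraries differed by less than the counting error at the median transcript length. With the longest annotated transcript the interval was 1.003 to 1.11 and lay above 1. *Slfn4* is the gene with the first of the printed 3′ UTR sites. *Slfn3*, its neighbour with the most similar coding sequence, was the lowest member at 2.90 FPKM in WT (2.48 to 3.37) and 2.51 FPKM in ΔM (2.10 to 2.98). Its ratio of 0.866 had the widest interval of the family, from 0.685 to 1.09, because only about 172 and 132 fragments stood behind it. A difference inside that interval was not detectable at this depth.

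The long members were the closest to equal. *Slfn5*, an interferon-induced nuclear protein, was at 80.3 FPKM in WT (78.2 to 82.4) and 79.7 FPKM in ΔM (77.5 to 82.0). The ratio was 0.993 (0.956 to 1.03), a log2 ratio of -0.010. *Slfn5* carries the other TTP site printed above, and a further site listed for 6 h lay within its heptamer. *Slfn8* was at 69.2 FPKM in WT (67.7 to 70.8) and 69.1 FPKM in ΔM (67.4 to 70.8), a ratio of 0.998 (0.965 to 1.03) and a log2 ratio of -0.0027. *Slfn9* was at 9.95 FPKM in WT (9.43 to 10.5) and 10.3 FPKM in ΔM (9.71 to 10.9), a ratio of 1.03 (0.956 to 1.12) and a log2 ratio of 0.04. The spread between cultures, which these intervals leave out, was not measured. *Slfn8* was 6.96-fold above *Slfn9* in WT and 6.72-fold in ΔM, although their coding sequences and the printed promoter windows are alike.

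No member passed 1.5-fold in either direction. The median log2 ratio of the 7 genes was -0.0027, with a range from -0.15 to 0.31, and 3 members were higher and 4 lower in ΔM. Among all 10765 expressed genes, 11.2% passed 1.5-fold as higher in ΔM and 7.51% as lower. Among the 8078 protein-coding genes these shares were 4.82% and 5.36%, and a count of 0 is close to what these shares give for 7 genes. The counting interval of the ratio lay above 1 for 1 member (*Slfn1*) and below 1 for 1 member (*Slfn2*). Of 8045 protein-coding genes with values above 0 in both libraries, 24.4% had an interval above 1 and 26.5% an interval below 1. For 5 of 7 members the interval held 1, and for 4 of 7 when the longest transcript was used, a choice added after seeing the data.

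**Figure D2:**
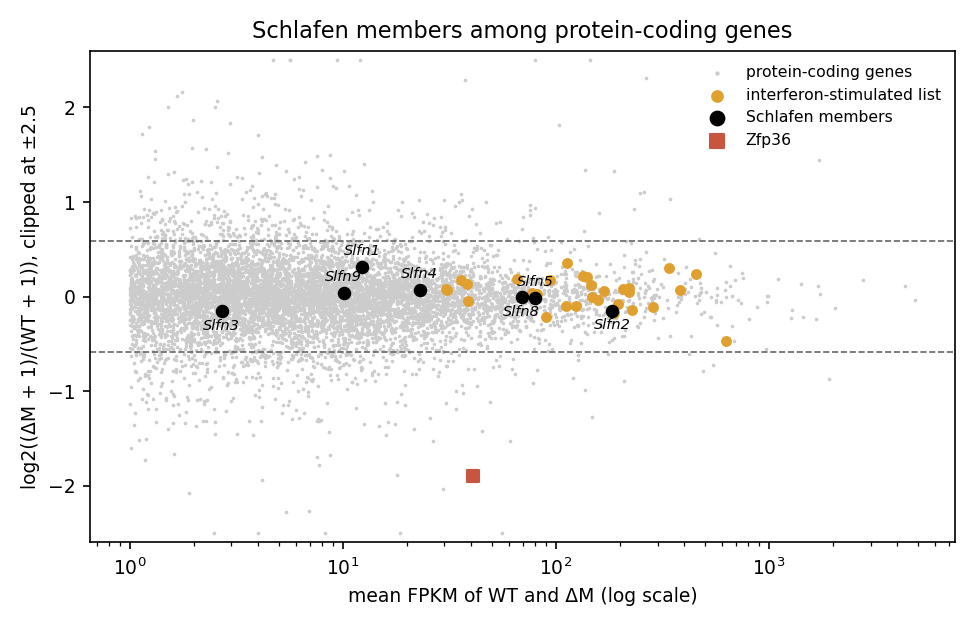
Log2 ratio of ΔM to WT (1 FPKM added) against mean FPKM on a log axis for 8078 protein-coding genes (grey), the 30 genes of the interferon-stimulated list (orange), the 7 Schlafen members (black) and *Zfp36* (red square). Dashed lines mark 1.5-fold and 12 genes beyond 2.5 are drawn at the edge. All 7 members lie between the dashed lines, while *Zfp36* lies at -1.90.

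Type I interferon induces many Schlafen genes, and the genes of that response were set beside them. *Ifnb1*, which encodes interferon β, was listed at 0 in WT and at 0.48 FPKM in ΔM (0.22 to 0.91, about 9 fragments). The receptor genes were at 76.5 and 76.3 FPKM (*Ifnar1*) and at 108 and 92.9 FPKM (*Ifnar2*), WT before ΔM. The receptor kinases *Jak1* (39.6 and 39.9 FPKM) and *Tyk2* (14.3 and 12.5 FPKM) had log2 ratios of 0.01 and -0.17. Of the transcription factors that carry the signal, *Stat2* was at 68.1 and 73.0 FPKM and *Irf9* at 18.12 and 17.98 FPKM. *Irf7*, the amplifier of the response, was at 989 and 994 FPKM. The feedback inhibitor *Socs1* was at 9.58 and 11.1 FPKM. Of the 9 genes whose mean reached 1 FPKM none passed 1.5-fold in either direction, and their median log2 ratio was 0.008. *Ifnb1* was below this mean, and its log2 ratio was set by the value added, at 0.57 with 1 FPKM and 2.54 with 0.1 FPKM.

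The 30 interferon-stimulated genes, effectors and sensors of antiviral defence, were all at 29.7 FPKM or more in both libraries. Their median level was 135 in WT and 148.5 FPKM in ΔM, and their summed level 5170 and 5174 FPKM. None passed 1.5-fold, and the median log2 ratio was 0.06 with 19 genes higher and 11 lower in ΔM. The largest ratios belonged to *Ifi44* (98.6 in WT and 126 FPKM in ΔM, log2 ratio 0.35), to *Usp18*, a brake on IFNAR signalling (305 and 376 FPKM, 0.30), and to *Cmpk2* (416 and 489 FPKM, 0.23). The smallest belonged to *Rsad2*, which encodes viperin (731 and 527 FPKM, -0.47), *Parp14* (97.1 and 83.3 FPKM, -0.22) and *Ifit2* (199 and 177 FPKM, -0.17). The counting interval lay above 1 for 14 of these genes (46.7%, against 24.4% of expressed protein-coding genes) and below 1 for 8 (26.7%, against 26.5%), and held 1 for 8. The intervals narrow with the level, and the median expressed protein-coding gene was at 6.34 FPKM in the WT library. The Schlafen ratios fell inside the range of the list, with *Slfn1* between *Ifi44* and *Usp18*, and *Slfn2* between *Xaf1* and *Ifit2*. Whether the members differ from the list was not tested, since genes of 1 library per genotype are not replicates.

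**Figure D3:**
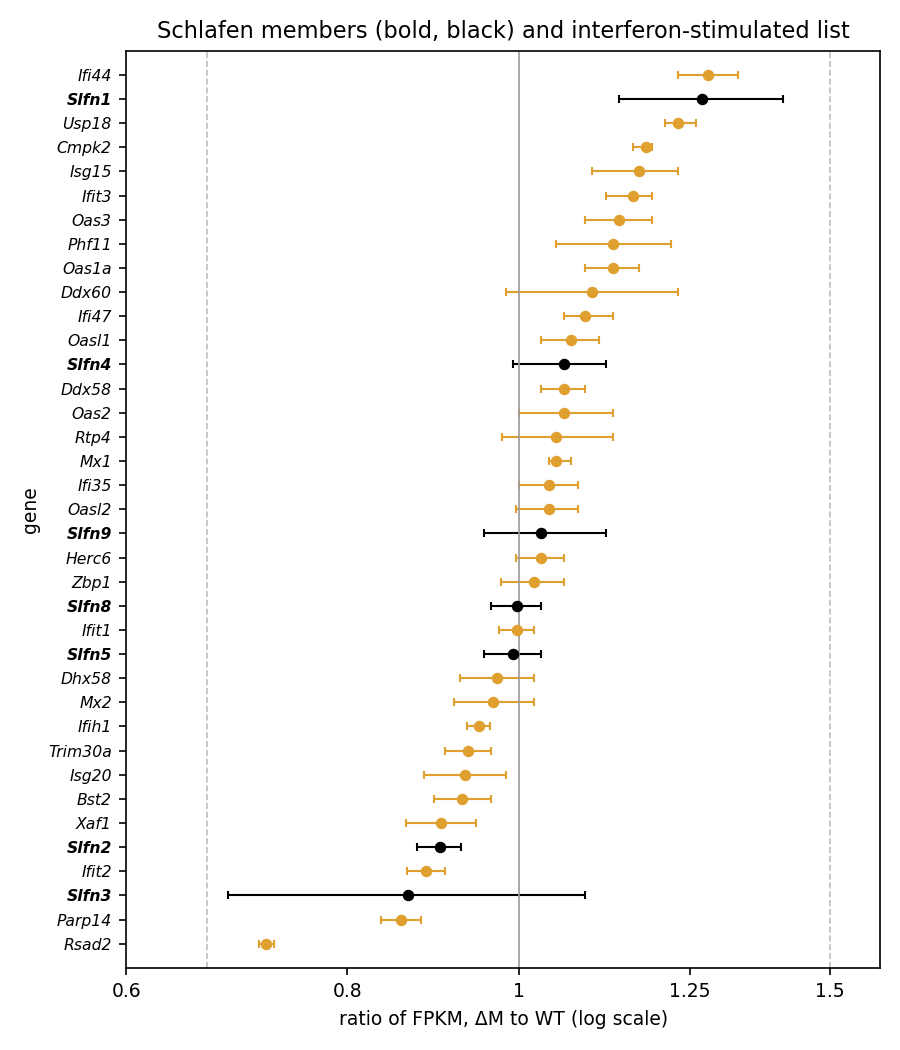
Ratio of FPKM in ΔM to WT on a log axis for the 7 Schlafen members (black, bold names) and the 30 interferon-stimulated genes (orange), ordered by ratio. Bars are 95% counting intervals, the solid line marks a ratio of 1 and the dashed lines mark 1.5-fold. The members spread from 0.866 (*Slfn3*) to 1.27 (*Slfn1*) and *Rsad2* is lowest at 0.720.

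By level in the 2 libraries, the protein-coding genes nearest to *Slfn2* were *Gnas* (191 and 175 FPKM), *Ifit2* (199 and 177 FPKM) and *Chmp4b* (202 and 173 FPKM). Nearness was the Euclidean distance between log2(FPKM + 1) values in WT and ΔM, and came to 0.02, 0.04 and 0.06. With 2 libraries this likeness rests on 2 values per gene.

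The other Schlafen rows were low. *Slfn10-ps*, which the annotation calls protein-coding in spite of its name, was at 2.39 FPKM in WT (2.12 to 2.69) and 2.23 FPKM in ΔM (1.95 to 2.53), a log2 ratio of -0.07. *Slfn14-ps* was at 0.01 and 0.02 FPKM, which corresponds to about 1 and 2 fragments. *Slfnl1*, a Schlafen-like gene on chromosome 4, was listed at 0 in both libraries.

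Within 100 kb of the cluster, or inside it, 10 non-member genes reached a mean of 1 FPKM, and 8 of them were longer than 300 nt. These 8 had log2 ratios from -0.79 to 0.59, 1 higher and 7 lower in ΔM. Of all 10765 expressed genes, which include short RNAs, 5795 were higher and 4938 lower. Of the 8078 protein-coding genes among them, 4000 were higher and 4052 lower. The counting interval of the ratio held 1 for *Nle1* (0.397 to 1.08), *Slfn10-ps* (0.782 to 1.11), *Gm11425* (0.343 to 1.92) and *Gm11427* (0.644 to 1.17). It excluded 1 for *Rad51l3*, *Rffl*, *AI662270* and *Ap2b1*. *Rad51l3*, a gene of homologous recombination, was at 1.31 in WT and 2.47 FPKM in ΔM, and its log2 ratio of 0.59 lay just past 1.5-fold. *Rffl* was lower in ΔM, at 7.28 in WT and 4.25 FPKM in ΔM (-0.66), as was the noncoding *AI662270* inside the cluster, at 12.7 and 6.91 FPKM (-0.79). *Nle1* (2.38 and 1.57 FPKM), *Ap2b1* (8.38 and 6.86 FPKM) and the pseudogenes *Gm11425* (1.38 and 1.14 FPKM) and *Gm11427* (2.06 and 1.79 FPKM) stayed within 1.5-fold once 1 FPKM was added, while the plain FPKMs of *Nle1* gave a ratio of 0.66. The short RNAs *U2* and *Snord7* also reached the minimum, but genes shorter than the sequenced fragments have inflated FPKMs, and their values were not interpreted. The only gene of the table that overlaps a member is *1700003F17Rik*, on the other strand of *Slfn5*. It was listed at 0 in both libraries.

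**Figure D4:**
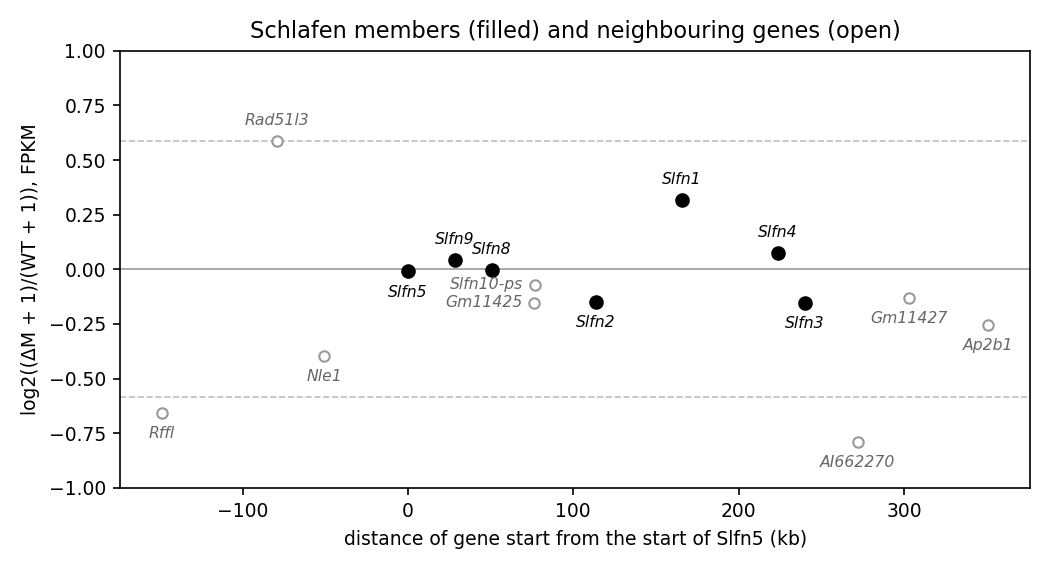
Log2 ratio of ΔM to WT (1 FPKM added) against the distance of the gene start from the start of *Slfn5* in kb, for the 7 Schlafen members (filled) and the 8 other genes of at least 1 FPKM and over 300 nt in or within 100 kb of the cluster (open). Dashed lines mark 1.5-fold. The members lie between -0.15 and 0.31, and *Rffl*, *Rad51l3* and *AI662270* lie past a dashed line.

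Because only uniquely mapped reads were kept, the sequence shared between members bears on their levels. Windows of 100 nt, the length of a read, were taken from all annotated coding transcripts and searched in mm9 without mismatches. No window of *Slfn1* occurred at more than 1 place in the genome. The share that did was 0.128% for *Slfn2*, 0.268% for *Slfn4* and 0.459% for *Slfn5*, whose copies were spread over many chromosomes. *Slfn8* (3.38%) and *Slfn9* (4.04%) shared windows with each other and, more, with *Slfn10-ps*, which itself shared 6.98%. *Slfn3* had 94 such windows (5.18%), all of them also in the pseudogene *Gm11427*. A read that lies wholly in such a stretch has no unique position by itself. The search allowed no mismatches and took no account of the other read of a pair. Windows across exon junctions, which a genome search cannot find, stayed in the totals. The shares can thus lie above or below the true share of ambiguous sequence. FPKMs of *Slfn3*, *Slfn8*, *Slfn9* and *Slfn10-ps* are therefore less certain as levels than those of *Slfn1* and *Slfn2*. How far this moved the FPKMs was not tested.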

How the data were processed

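Total RNA of BMDMs was depleted of rRNA, fragmented, size selected as cDNA and sequenced in paired ends. The authors trimmed the reads, aligned them to mm9 with Segemehl, kept unique alignments and used Cufflinks with Ensembl exons. The deposited values are FPKM, 1 per gene and library, with 2 decimals, and 1 value lacked a number. The members and gene lists were chosen with earlier results of these data known. Gene types, positions and lengths came from GENCODE M1 (37039 of 37451 genes matched). Numbers of fragments were estimated from the steps of low FPKMs of single-transcript genes of 350 to 800 nt, of which 92.8% in WT and 93.7% in ΔM came out whole within 0.15, against 30% by chance. Fragments per gene used the median annotated transcript length. This search and the fold calls were tested on simulated data. No count model and no test were used, because FPKMs of 1 library per genotype allow neither. Log2 ratios used a pseudocount of 1 FPKM, expressed genes (mean of 1 FPKM or more) and a fold of 1.5. Named were the members, *Zfp36*, other Schlafen rows, the 3 highest and 3 lowest ratios of the interferon-stimulated list, the signalling genes (1 of which is not reported here) and macrophage genes, markers of other cells with at least 1 FPKM, neighbours within 100 kb and the 3 genes nearest to *Slfn2* in level. *Xaf1*, *Cd3e* and *Ly6g* were named after their values were seen. Alternatives changed the pseudocount, minimum, centring, fold and background. Protein sequences were not used here. Scripts ran under Python 3.11.15 with scipy 1.17.1, pandas 2.3.3, numpy 2.4.6, Biopython 1.88 and matplotlib 3.10.9.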

Additional observations from a re-analysis of the deposited data

How the results depend on the processing

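The log2 ratio of each of the 7 Schlafen genes, their median, the counts of 0 members past the fold in either direction and the median of the interferon-stimulated genes were recalculated with a pseudocount of 0.1 FPKM, without a pseudocount, after centring on the median of protein-coding genes (-0.0015), without a minimum and with a minimum mean of 10 FPKM, and the counts also at a fold of 2. The transcript length behind the counting intervals was changed as well. In 57 of 58 recalculations the value moved by less than its counting error or, for counts, stayed within 1.5 times. Many of these could not move. A minimum leaves the ratio of a single gene unchanged, and all 30 interferon-stimulated genes lay above both minima. At the minimum of 10 FPKM *Slfn3* was left out, and the median of the remaining 6 members was 0.02. Restricting the background to protein-coding genes lowered the share of genes past 1.5-fold in either direction from 18.7% to 10.2%. No paired analysis was possible because each genotype has 1 library, nor could a library be left out. Depth limits *Slfn3* most, and intervals calculated with the longest transcript changed that of *Slfn4* to 1.003 to 1.11, which no longer holds 1, so that 4 instead of 5 members had an interval holding 1.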
